A study of Mus musculus with 65 samples.

Results

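Cohesin peaks that carried none of CTCF, LDB1 or YY1 were examined in G1E-ER4, a mouse erythroblast line that lacks GATA1 of its own and carries a GATA1 fusion to the estrogen receptor. The sites are the RAD21 peaks of untreated LDB1-AID cells, on chromosomes 1 to 19 and X, that shared no base pair with a CTCF, LDB1 or YY1 peak of the same untreated cells. They numbered 3132 of 33160 RAD21 peaks, or 9.45% (95% Wilson interval 9.14 to 9.76%), and they are called RAD21-alone peaks here. They made up 49.5% of the 6327 RAD21 peaks without CTCF. The other 3195 carried LDB1 only (1326 peaks), YY1 only (1121) or both (748). The RAD21-alone peaks were chosen by the peak positions in those 4 sets, so the absence of CTCF, LDB1 and YY1 and the distances to them are a description. The peak sets of the other subline and of auxin-treated cells had no part in it.

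RAD21 is the kleisin subunit that closes the cohesin ring around DNA, and SMC3 is one of the ring's ATPase arms. Cohesin extrudes chromatin loops, and it accumulates where CTCF, a zinc-finger protein bound in a set orientation, stops it. Cohesin is also found at active enhancers and promoters without CTCF. LDB1 binds no DNA itself and reaches erythroid enhancers through a complex with GATA1 and TAL1. YY1 is a zinc-finger protein found mostly at promoters.

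The chromatin immunoprecipitation and sequencing (ChIP-seq) sets came from 2 sublines. In LDB1-AID cells LDB1 is fused to a degron tag (AID) that leads to its breakdown when auxin is added, and in SMC3-AID cells SMC3 is fused to it. Both sublines were profiled untreated and after 4 h of auxin, and the untreated cells carry the tag too. The untreated LDB1-AID sets held 33160 RAD21, 54223 CTCF, 10729 LDB1 and 12816 YY1 peaks on these chromosomes, and the auxin-treated LDB1-AID set held 1043 LDB1 peaks. In untreated SMC3-AID cells there were 15223 RAD21 and 8585 LDB1 peaks, and after auxin 24 and 7237. Each set pools all replicates of its group, 2 for LDB1-AID and 3 for SMC3-AID, so replicate error cannot be given for any value. Intervals are 95% and cover counting error only. Peak height and read depth are unknown, so a site without a peak in a second set may be unbound or only weaker there. Depth, subline and peak calling cannot be told apart in a comparison between sublines.

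RAD21-alone peaks were seldom found again in the second subline, and the ones that were lay mostly beside CTCF. A peak counted as found when it overlapped a peak of the second set by 1 bp or more. Of the 3132 RAD21-alone peaks, 500 were found among the RAD21 peaks of untreated SMC3-AID cells, or 15.96% (14.7 to 17.3%). The share over all RAD21 peaks of untreated LDB1-AID cells was 43.4%. RAD21 peaks with CTCF only were found at 51.1%, which is 35.1 percentage points above the RAD21-alone peaks (Newcombe interval of the difference, 33.7 to 36.5 points). RAD21 peaks with LDB1 only were found at 7.92% and those with YY1 only at 6.51%. RAD21-alone peaks exceeded these by 8.05 points (6.04 to 9.93) and 9.45 points (7.43 to 11.3). RAD21 peaks with LDB1 and YY1 together were found at 13.9%, and the difference of 2.06 points had an interval from -0.88 to 4.71 that includes 0.

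**Figure D1:**
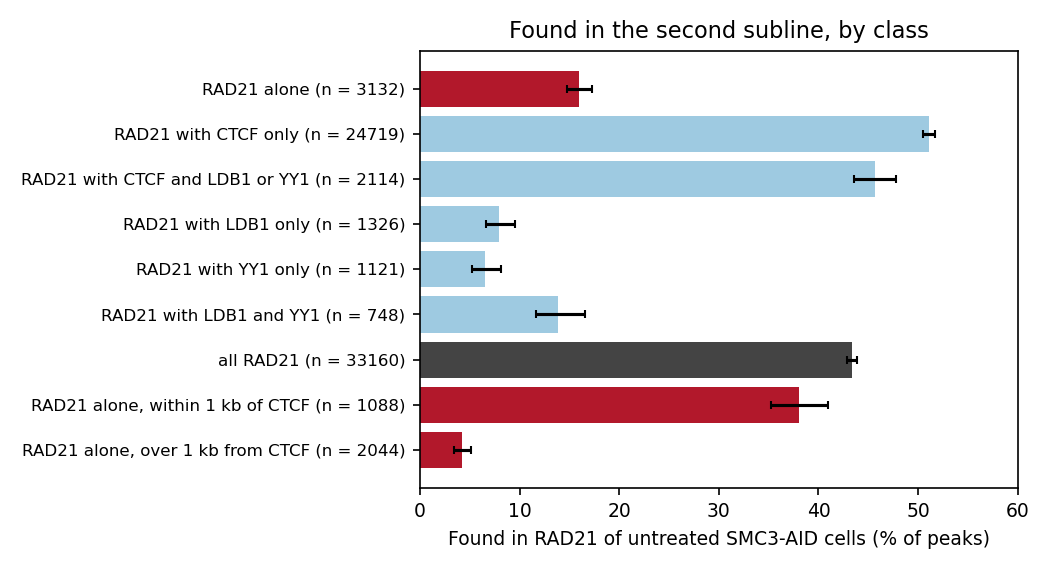
Share of RAD21 peaks of untreated LDB1-AID cells (%, horizontal axis) that overlapped, by 1 bp or more, a RAD21 peak of untreated SMC3-AID cells, by the proteins each peak carried, with the number of peaks in brackets. Bars start at 0 and lines are Wilson 95% intervals. The 2 lowest bars split the RAD21-alone peaks by distance to CTCF, and they stand at 38.1% and 4.21%.

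The excess over the LDB1 and YY1 classes was seen among peaks close to CTCF. Within 1 kb of the nearest CTCF peak, measured edge to edge, 414 of 1088 RAD21-alone peaks were found, or 38.1% (35.2 to 41.0%). Farther away 86 of 2044 were found, or 4.21% (3.42 to 5.17%), a difference of 33.8 points (30.8 to 36.9). The 1 kb limit was chosen after the values were seen. Among peaks over 1 kb from CTCF, RAD21-alone peaks were found less often than those with LDB1 only (6.99%), by 2.78 points (1.15 to 4.57), so the sign of that comparison turned. They were also found less often than those with LDB1 and YY1 (13.6%), by 9.38 points (6.78 to 12.3). Against those with YY1 only (3.16%) the difference of 1.05 points had an interval from -0.55 to 2.42. Within 1 kb of CTCF the order was the other way. The shares were 15.0% for LDB1 only, 17.3% for YY1 only and 16.1% for LDB1 with YY1. Each was at least 20.8 points below the RAD21-alone peaks. Distance within the 1 kb was not held fixed there. Of the RAD21-alone peaks, 515 of 1088 lay at 1 to 200 bp. In the same order, the other classes had 28 of 153, 88 of 266 and 20 of 93 there. RAD21-alone peaks were above each class at 1 to 200, 201 to 400 and 401 to 600 bp. At 601 to 1000 bp they were at 9.55%, against 9.23%, 2.56% and 19.05%. The other classes held 14 to 88 peaks each at these distances.

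The share fell with distance over the first kilobase and was low and flat beyond it. Of 515 peaks 1 to 200 bp from CTCF, 250 were found (48.5%, 44.3 to 52.9%). At 201 to 400 bp the share was 40.5%, at 401 to 600 bp it was 30.5% and at 601 to 1000 bp it was 9.55%. At 1001 to 2000 bp it was 4.87% of 308 peaks. In the next 4 classes, up to 100 kb, it stayed between 2.85% and 4.90%, and 3 of the 77 peaks over 100 kb from CTCF were found (exact interval 0.811 to 10.97%). Around the limit that defines the sites, RAD21 peaks that shared 1 to 100 bp with CTCF were found at 55.5% of 651, and RAD21-alone peaks 1 to 100 bp away at 49.2% of 305.

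**Figure D2:**
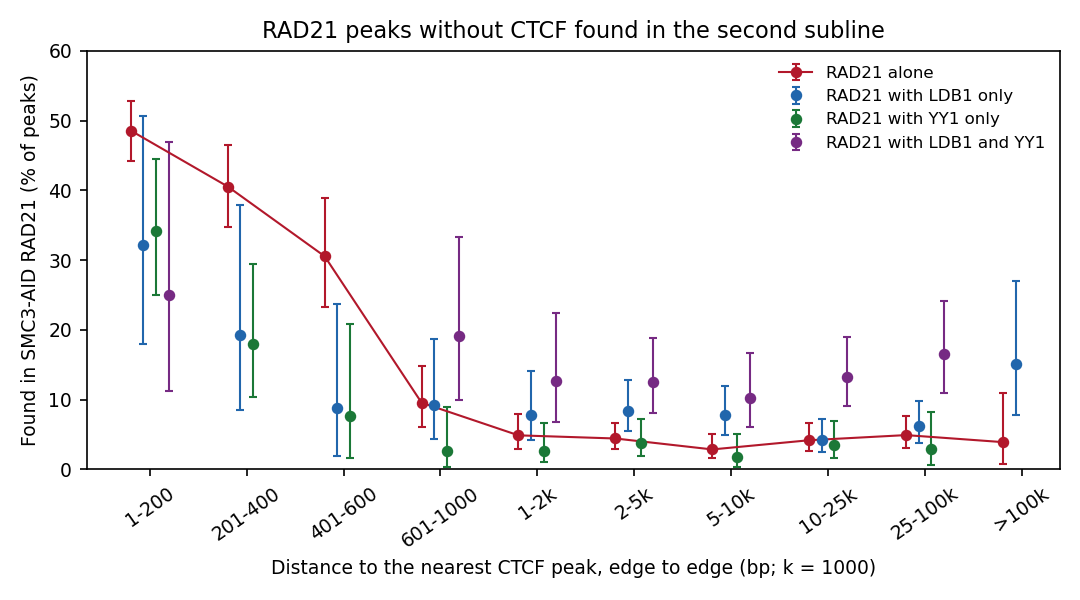
Share of RAD21 peaks without CTCF found among the RAD21 peaks of untreated SMC3-AID cells (%, vertical axis) in classes of distance to the nearest CTCF peak (horizontal axis, bp, with unequal class widths). Lines are 95% intervals and classes with fewer than 20 peaks are not drawn. RAD21-alone peaks run from 48.5% at 1 to 200 bp to under 5% beyond 1 kb.

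The match was close in position. Among the 414 found within 1 kb of CTCF, the midpoint of the SMC3-AID RAD21 peak lay a median of 42.5 bp from that of the RAD21-alone peak, and 71.7% lay within 100 bp. The shift was towards CTCF in 223, away from it in 189 and nil in 2. In 83 of them (20.05%) the SMC3-AID peak itself touched CTCF. Counting only the other 331, the share found near CTCF was 30.4%, still 26.2 points (23.4 to 29.1) above that of the distant sites. Among the 86 distant matches the median shift was also 42.5 bp, and none touched CTCF.

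The CTCF peak next to a RAD21-alone peak often had no RAD21 peak of its own. Among sites within 1 kb, 806 of 1088 (74.1%) had a nearest CTCF peak without RAD21, against 868 of 2044 (42.5%) of those farther away. By distance, the share of nearest CTCF peaks with RAD21 was 12.8% at 1 to 200 bp, 22.0% at 201 to 400 bp, 37.4% at 401 to 600 bp and 61.2% at 601 to 1000 bp. These positions come from the sets that chose the sites, so they are a description. RAD21 peaks also seldom lay close together. Of the 1088 sites, 1 had another RAD21 peak within 200 bp, 57 within 400 bp and 568 within 1 kb. A RAD21 peak centred on a CTCF peak 200 bp away would itself lie 200 bp from the site. The part of this spacing in the shares was not tested. The readout of the other subline differed between the 2 kinds of site. RAD21-alone peaks beside a CTCF peak without RAD21 were found at 45.5% (367 of 806), and those beside a CTCF peak with RAD21 at 16.7% (47 of 282), a difference of 28.9 points (23.0 to 34.1). Sites beside CTCF peaks without RAD21 also lay closer to CTCF. Within each of the 4 distance classes the difference had the same sign, between 12.8 and 29.2 points, and each interval excluded 0. The lowest was 12.8 points (3.66 to 23.7) at 601 to 1000 bp. Over 1 kb from CTCF the shares were 4.26% and 4.17%, a difference of 0.096 points (-1.64 to 1.95).

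At sites near CTCF, an SMC3-AID RAD21 peak lay on the RAD21-alone peak, on the adjacent CTCF peak, on both or on neither. Of the 806 sites beside a CTCF peak without RAD21, the SMC3-AID peak was on the RAD21-alone site only in 277 (34.4%), on both in 90 (11.2%), on the CTCF peak only in 102 (12.7%) and on neither in 337 (41.8%). Of the 282 beside a CTCF peak that had RAD21 in LDB1-AID cells, the corresponding numbers were 31 (10.99%), 16 (5.67%), 129 (45.7%) and 106 (37.6%).

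**Figure D3:**
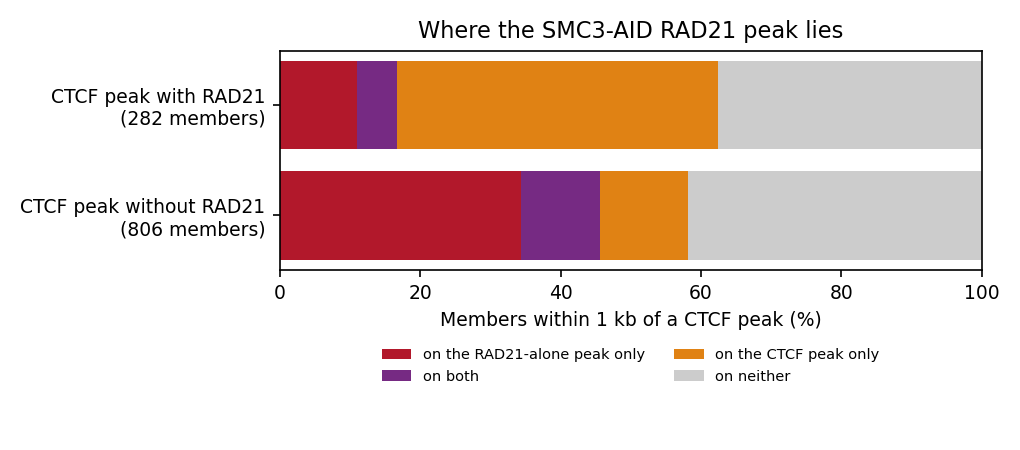
Position of the RAD21 peak of untreated SMC3-AID cells at RAD21-alone peaks within 1 kb of a CTCF peak (% of sites, horizontal axis), for sites whose CTCF peak had no RAD21 peak in LDB1-AID cells and sites whose CTCF peak had one. The segment on the RAD21-alone peak only is 34.4% in the first and 10.99% in the second, and the segment on the CTCF peak only is 12.7% and 45.7%.

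A group of CTCF peaks had RAD21-alone peaks on both sides and no RAD21 peak in the middle. The 1088 sites near CTCF lay beside 901 CTCF peaks, of which 624 had no RAD21 peak, or 2.28% of the 27407 CTCF peaks without RAD21. At 181 of them a RAD21-alone peak was nearest on each side, with 363 RAD21-alone peaks in all. Among the 26816 CTCF peaks with RAD21 there were 5 such cases. The outer midpoints of the 181 lay a median of 1217 bp apart (quartiles 1058 and 1458 bp). Since every peak is 400 bp wide, 800 bp is the least that keeps 3 peaks apart. How the intervals were set to this width and merged over replicates is not given in the sources used here, and its part in these cases was not tested. The flanking sites were found in SMC3-AID RAD21 at 57.3% (208 of 363, 52.2 to 62.3%), against 35.9% (159 of 443, 31.6 to 40.5%) where a CTCF peak without RAD21 had a RAD21-alone peak on 1 side. Distance to CTCF was not held fixed there. The interval of the flanking sites counts those beside the same CTCF peak as separate. On the middle CTCF peak itself, SMC3-AID RAD21 was present at 16 of 181 (8.84%), against 160 of 443 (36.1%) with a site on 1 side. In LDB1-AID cells 8 of the 3132 RAD21-alone peaks had another RAD21 peak within 200 bp. The shares on the flanks and in the middle, and the count of 5, may thus be tied by peak spacing, which was not tested. At 165 of the 181 the middle thus had no RAD21 peak in either subline, which does not show that RAD21 was absent. At 138 of the 165 at least 1 flanking site was found, where a site on either side could count. Over all 181, no flanking site was found at 29.

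There were 49 cases where every flanking site was found and the middle had no RAD21 peak in either subline. The 3 tightest pairs are given, chosen after their values were seen. Coordinates are mm9 and are counted from 1. At chr17:89051386-89051785 and chr17:89052285-89052684 the RAD21-alone peaks lay 30 and 71 bp from the CTCF peak chr17:89051815-89052214, with midpoints 899 bp apart. At chr15:103012527-103012926 and chr15:103013503-103013902 they lay 141 and 37 bp from chr15:103013067-103013466, 976 bp apart. At chr11:70590653-70591052 and chr11:70591644-70592043 they lay 109 and 84 bp from chr11:70591161-70591560, 991 bp apart. Each pair thus enclosed 1 CTCF peak at under 150 bp on either side.

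More of the RAD21-alone peaks than of the other RAD21 peaks that lacked CTCF lay within 1 kb of CTCF. Their median distance was 2797 bp (quartiles 405 and 11618 bp, range 1 to 563729 bp). The median was 8664 bp for RAD21 with LDB1 only, 3702 bp with YY1 only and 7238 bp with both. Within 1 kb of CTCF lay 34.7% of RAD21-alone peaks, 11.5% with LDB1 only, 23.7% with YY1 only and 12.4% with both. LDB1 peaks that had neither CTCF nor RAD21 were within 1 kb of CTCF at 12.8%, and such YY1 peaks at 18.3%. Within 10 kb of CTCF lay 2280 RAD21-alone peaks, or 72.8%, against 93.7% of all RAD21 peaks, most of which were on a CTCF peak. The share with YY1 only was 71.5% at 10 kb, and at 25 kb it was 89.7%, above the 85.8% of RAD21-alone peaks. The sites over 1 kb from CTCF lay in intervals between CTCF peaks with a median length of 48.2 kb. The share of the interval between a site and its nearer CTCF peak had a median of 0.233, where 0 is at a CTCF peak and 0.5 is the middle.

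LDB1 peaks, of which there were 10729 against 54223 of CTCF, lay farther off than CTCF peaks. The median distance of RAD21-alone peaks to the nearest LDB1 peak was 21951 bp (quartiles 6950 and 67366 bp), against 18251 bp for RAD21 with YY1 only and 48444 bp for RAD21 with CTCF only. Within 10 kb of LDB1 lay 1007 of them (32.2%), and 26.3% of all RAD21 peaks were within 10 kb of LDB1 or on it. Within 1 kb lay 207 (6.61%), where the shares were 8.03% with YY1 only and 1.99% with CTCF only. YY1 was within 1 kb of 615 (19.6%) and within 10 kb of 1325 (42.3%) of the RAD21-alone peaks. For RAD21 with LDB1 only the shares were 16.1% and 45.3%. Of all RAD21 peaks, 33.4% were within 10 kb of YY1 or on it. LDB1 was within 1 kb of 6.16% of the sites near CTCF and 6.85% of the far sites, and YY1 was within 1 kb of 17.8% and 20.6%. Within 10 kb of LDB1 lay 29.6% of the near and 33.5% of the far sites, and within 25 kb 50.1% and 55.2%. In windows of 50 kb to either side, the sites had a mean of 5.19 CTCF, 1.86 LDB1 and 2.002 YY1 peaks. The means were 5.84, 1.06 and 1.38 for RAD21 with CTCF only and 5.79, 1.93 and 3.26 with YY1 only. With LDB1 only they were 3.93, 3.77 and 2.18. The protein peak that defines a class counts in its mean. No CTCF, LDB1 or YY1 peak lay in that window at 88 of the RAD21-alone peaks. That count was not taken for other RAD21 peaks.

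**Figure D4:**
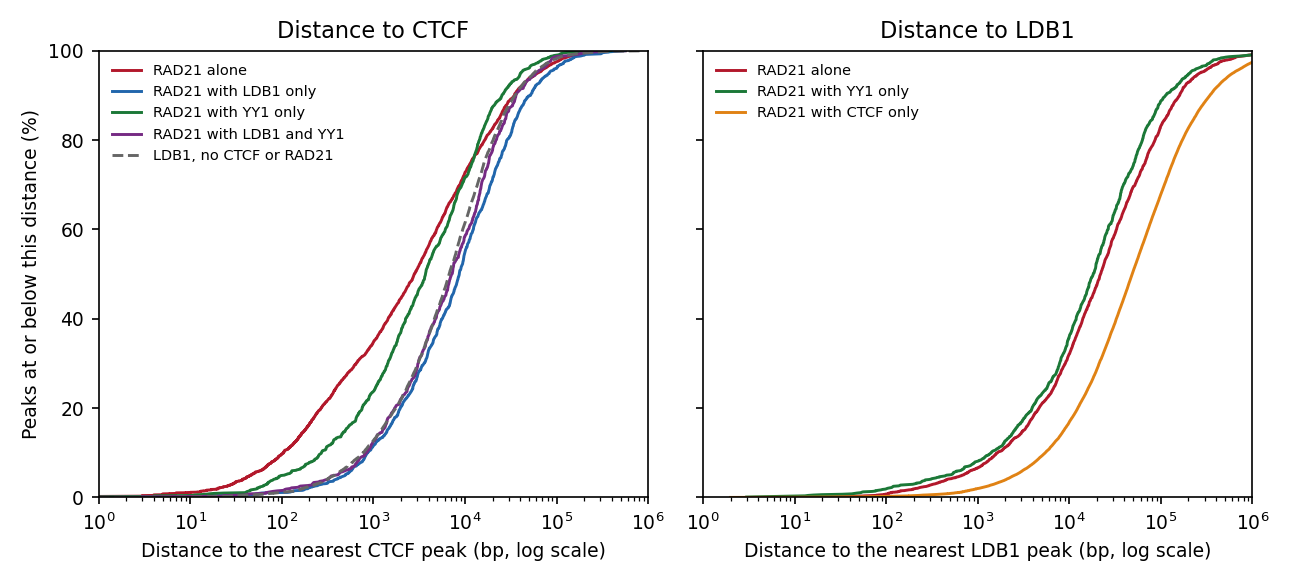
Cumulative share of peaks (%, vertical axis) by distance to the nearest CTCF peak (left) and LDB1 peak (right) of untreated LDB1-AID cells (bp, log scale). The curve of RAD21-alone peaks is the highest of the left panel at 1 kb, at 34.7%, and lies between RAD21 with YY1 only and RAD21 with CTCF only in the right panel.

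The presence of YY1 or LDB1 nearby went with a lower share found, among the sites near CTCF. Of 194 sites within 1 kb of both CTCF and YY1, 34 were found in SMC3-AID RAD21 (17.5%), against 380 of 894 (42.5%) with YY1 farther away, a difference of 24.98 points (18.2 to 30.7). For LDB1 the shares were 23.9% (16 of 67) and 39.0% (398 of 1021), a difference of 15.1 points (3.28 to 24.2). Neither the distance to CTCF within the 1 kb nor the RAD21 state of the CTCF peak was held fixed in these comparisons. Over 1 kb from CTCF the intervals of the corresponding differences included 0. There the shares were 2.85% with YY1 within 1 kb and 4.56% without, and 3.57% with LDB1 within 1 kb and 4.25% without.

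No RAD21-alone peak had a RAD21 peak in auxin-treated SMC3-AID cells. A count of 0 of 3132 allows a share of up to 0.0958%, taken as 3 counts of the total (0.118% by the exact interval). Over all RAD21 peaks 2 were found there, or 0.00603%, and the auxin set held only 24 peaks, too few for a comparison between classes.

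LDB1 peaks of the other sets fell on few of the sites. In untreated SMC3-AID cells 28 RAD21-alone peaks carried LDB1, or 0.894% (0.619 to 1.29%), where the share over all RAD21 peaks was 6.31%. That background holds the peaks with LDB1, which the selection removed. The classes that also lacked LDB1 stood at 0.113% (CTCF only) and 1.25% (YY1 only, 0.745 to 2.09%). After SMC3 breakdown 19 carried it (0.607%, 0.389 to 0.946%), with 0.0647% for CTCF only, 0.892% for YY1 only and 5.78% over all RAD21 peaks. Among the 28, 15 also had LDB1 after auxin, and 4 sites had it only after auxin. Of the 28 with LDB1 in untreated SMC3-AID cells, 12 lay within 200 bp of an LDB1 peak of untreated LDB1-AID cells, 15 within 1 kb and 13 farther away, 6 of them over 10 kb. Of the 59 sites 1 to 200 bp from an LDB1 peak 12 carried it (20.3%), and of the 527 over 100 kb away none did, where 3 counts of the total are 0.569% and the exact upper limit is 0.698%. In all, 2577 of the 3132 (82.3%) had no peak in any of the 5 other sets, and 497 had SMC3-AID RAD21 alone. The share in none of them was 51% over all RAD21 peaks, 48.8% with CTCF only and 90.7% with YY1 only.

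RAD21 and LDB1 of untreated SMC3-AID cells met at 3 sites, and at each of them LDB1 was present after SMC3 breakdown too. The site chr2:92507358-92507757 lay 17.7 kb from LDB1 and 58.1 kb from CTCF of LDB1-AID cells. The site chr15:36829616-36830015 lay 1.13 kb from LDB1 and 41.8 kb from CTCF, and its SMC3-AID RAD21 peak was shifted by 1 bp. The third, chr1:152926757-152927156, lay 18 bp from LDB1 and 343 bp from CTCF.

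In auxin-treated LDB1-AID cells, 28 RAD21-alone peaks carried an LDB1 peak (0.894%, 0.619 to 1.29%). Its absence before treatment was part of the selection. The share was 1.72% over all RAD21 peaks, LDB1 carriers included, 0.0485% with CTCF only and 1.87% with YY1 only (1.23 to 2.85%). Over the whole auxin set 207 of 1043 LDB1 peaks (19.8%) had no LDB1 peak in untreated LDB1-AID cells. Of those 207, 190 also had none in either SMC3-AID set. Of the 28 sites, 26 had LDB1 in neither SMC3-AID set. None of the 28 had SMC3-AID RAD21, against 15.96% of all RAD21-alone peaks. Over all 28, the median distance to an untreated LDB1 peak was 22.0 kb. Within 1 kb of such a peak lay 4 (14.3%), within 1 kb of YY1 9 (32.1%) and within 1 kb of CTCF 3 (10.7%). Over all RAD21-alone peaks the shares were 6.61%, 19.6% and 34.7%. The 2 sites with LDB1 elsewhere, chr11:11735367-11735766 and chr11:11736611-11737010, had it in both SMC3-AID sets. They lay 286 and 160 bp from an untreated LDB1 peak and 845 bp from each other. The site farthest from CTCF among the 28, chr10:15477331-15477730, lay 332 kb from CTCF and 2.24 kb from LDB1. These sites were chosen for their values.

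The 5 sites farthest from CTCF that were found in SMC3-AID RAD21 lay on chromosomes 2, 3, 6 and 8. The most distant, chr3:60806605-60807004, was 170 kb from CTCF, 72.7 kb from LDB1 and 2.45 kb from YY1. At chr8:10827578-10827977 CTCF was 137 kb, LDB1 107 kb and YY1 96.0 kb away. At chr2:44782483-44782882 the distances were 107, 114 and 92.0 kb. At chr6:65904731-65905130 they were 89.4, 97.0 and 256 kb. The fifth is the site on chromosome 2 at 92507358 named above, which carried SMC3-AID LDB1. The SMC3-AID RAD21 midpoint was 40 to 107 bp from theirs. At the other end, 5 of the sites that abut a CTCF peak (1 bp) were chr1:156874569-156874968, chr6:86799852-86800251, chr7:52428368-52428767, chr8:119451757-119452156 and chr14:52100915-52101314, and 1 of them, that on chromosome 8, was found. Just outside the limit, 3 RAD21 peaks that shared 1 bp with CTCF, at chr11:51633428-51633827, chr14:105695120-105695519 and chrX:68901119-68901518, were all found. At chr19:9016112-9016511 1 bp was shared with YY1 and at chr2:49306691-49307090 2 bp, and neither peak was found.

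Most RAD21-alone peaks had another RAD21 peak within 25 kb, as did the other RAD21 peaks without CTCF. The number was 2613 (83.4%), against 75% of all RAD21 peaks, and the shares were 84.2% with LDB1 only, 83.5% with YY1 only and 86.2% with both. Another RAD21-alone peak lay within 25 kb of 1110 (35.4%, 33.8 to 37.1%). A RAD21-alone peak was that close to 16.6% of all RAD21 peaks, to 12.3% with CTCF only, 26.8% with YY1 only, 30.7% with LDB1 only and 35.4% with LDB1 and YY1. Linked in this way they formed 497 chains of 2 to 6, of which 410 were pairs. The chain with the most sites, chr4:46587595-46630696, had 6 RAD21-alone peaks among 8 RAD21 peaks in 43.1 kb, with 2 CTCF, 3 LDB1 and 3 YY1 peaks. Of the 5 chains of 5, that at chr2:165700299-165747561 spanned 47.3 kb with 8 CTCF peaks, and 4 of its sites lay within 1 kb of CTCF. That at chr6:88143617-88158009 packed 5 sites into 14.4 kb with 1 CTCF, 1 LDB1 and 1 YY1 peak, and none of its sites was within 1 kb of CTCF. SMC3-AID RAD21 had 2, 3 and 0 peaks in these 3 chains, and LDB1 of untreated SMC3-AID cells had 2, 1 and 1. In SMC3-AID RAD21 0 of the 16 sites were found. Of the sites of each chain, 2, 4 and 0 lay within 1 kb of CTCF. Over all RAD21-alone peaks 38.1% were found within 1 kb of CTCF and 4.21% farther away.

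All chromosomes contributed. RAD21-alone peaks made up 8.16% of the RAD21 peaks of chromosome 13, the lowest share, and 11.7% of those of chromosome 15, the highest. The share found in SMC3-AID RAD21 was higher near CTCF than far from it on 19 of 20 chromosomes, from 22.2% to 48.0% near and from 1% to 7.48% far. The exception was X, where 0 of 63 were found, which allows up to 4.76% as 3 counts of the total, and 7 lay within 1 kb of CTCF (11.1%). Over all RAD21 peaks of X 37.4% were found, against 43.5% on autosomes. Chromosome 16 had the lowest autosomal share found, 6.56% of 122, with 22.1% of its sites near CTCF.

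**Figure D5:**
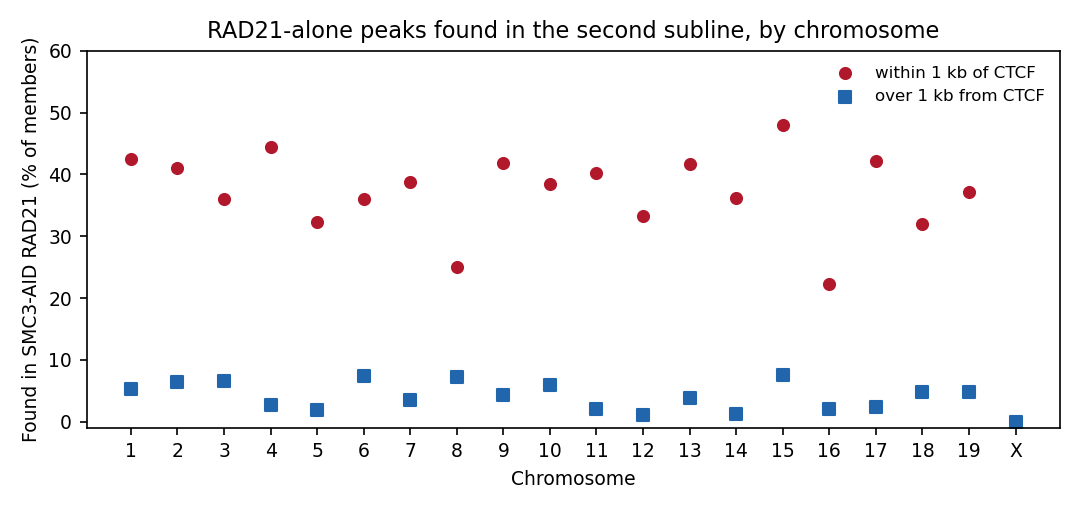
Share of RAD21-alone peaks found among the RAD21 peaks of untreated SMC3-AID cells (%, vertical axis) on each chromosome (horizontal axis), for sites within 1 kb of CTCF (circles) and over 1 kb from it (squares). The circles lie above the squares on all 19 autosomes, and both symbols lie at 0 on X, where the square covers the circle.

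Seen from the SMC3-AID subline, most RAD21 peaks away from the 3 other proteins lay within 1 kb of CTCF. Of its 15223 untreated RAD21 peaks, 824 (5.41%) shared no base pair with a CTCF, LDB1 or YY1 peak of LDB1-AID cells. Of these, 414 (50.2%) were on a RAD21-alone peak, 90 on another RAD21 peak and 320 (38.8%) on no RAD21 peak of LDB1-AID cells. Within 1 kb of CTCF lay 67.5% of the 824 (64.2 to 70.6%), with a median distance of 336.5 bp. Among the 320 on no RAD21 peak, 45.3% lay within 1 kb of CTCF, and among all RAD21-alone peaks 34.7%. The 414 lie on sites already counted as found above.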

How the data were processed

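Peak intervals deposited by the authors as consensus sets were used. They hold a chromosome, a start and an end, all 400 bp wide, with no score or height. The build is mm9, per the submitters' processing notes, which name Bowtie2, MACS2 2.2.9.1 and deepTools 3.5.1 without their roles. Cutoffs and the consensus rule are not given in the sources used here. The 9 sets cover 22 of 65 samples, and the others were not analysed here.

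Overlaps (1 bp or more) and edge distances were computed with numpy 2.4.6 and pandas 2.3.3 and checked against bedtools on simulated data. Touching peaks are 1 bp apart. Shares carry 95% Wilson intervals (exact Clopper-Pearson for 3 or fewer counts; the limit of a count of 0 is 3 counts of the total) and differences Newcombe intervals. No p-value was computed, since each group is 1 pooled set. The sites, lists and rules were chosen with earlier results of these data known. Named regions are those found farthest from CTCF, those nearest the limit, the chains with the most sites and those with both SMC3-AID RAD21 and LDB1, with ties by position. Genes, motifs and promoter sequence were not used, because the reference at hand is of another build.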

Additional observations from a re-analysis of the deposited data

How the results depend on the processing

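No paired analysis was possible because each deposited set pools its replicates, so no replicate could be left out either. Of 107 alternative values for 16 results, 60 kept their value within the limits set (1.5 times for counts, the interval for the others), 45 moved and 2 changed sign from a difference whose interval excluded 0. Among those that moved, 2 also changed sign, from a difference whose interval included 0. Autosomes only, removal of chromosome 9 below 3.1 Mb and removal of sites with LDB1 in any set moved none.

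The definition of the sites moved most. When a gap of up to 1 kb counted as carrying a protein, the sites numbered 1547, with 71 found in SMC3-AID RAD21, 11 on untreated and 6 on auxin SMC3-AID LDB1 and 17 on LDB1 of auxin-treated LDB1-AID cells. There 873 lay within 10 kb of CTCF and 409 of LDB1, the median distances were 8092 and 26666 bp, and 275 had a neighbour within 25 kb. The differences in share found were -46.7 (CTCF alone), -1.49 (LDB1 alone, sign changed), 1.63 (YY1 alone) and -7.32 points (LDB1 and YY1, sign changed). When 50% of both peaks had to be shared, which admits sites that touch CTCF, the sites numbered 5473, with 1663, 213, 187 and 74 in those sets and 1 on RAD21 of auxin-treated SMC3-AID cells. Then 4438 lay within 10 kb of CTCF and 1833 of LDB1, the median distance to CTCF was 615 bp, 2321 had a neighbour, and the differences were -19.4, 21.0, 14.9 and 15.9 points.

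With a gap of up to 1 kb counted as found, the counts were 854, 166, 142 and 62, with 1 on RAD21 of auxin-treated SMC3-AID cells, and the differences -25.1, 15.3, 13.0 and 10.02 points. For peaks over 1 kb from CTCF, a split added after the data were seen, they were -2.78 (LDB1 alone, sign changed), 1.05 and -9.38 points (LDB1 and YY1, sign changed). The near minus far difference was 39.8 points with a 400 bp limit, 26.6 with 2 kb and 26.2 without matches that touch CTCF, all added later. Within 5 and 25 kb of LDB1 lay 655 and 1674 sites, 1870 had a neighbour within 100 kb, and between midpoints the median distance to CTCF was 3196 bp.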

Other observations

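Outside chromosomes 1 to 19 and X, 3 of the 44 RAD21 peaks of untreated LDB1-AID cells shared no base pair with CTCF, LDB1 or YY1, and 1 of the 3 was found in RAD21 of untreated SMC3-AID cells.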
